A study of Oryza sativa Japonica Group and Oryza sativa Indica Group with 24 samples.

Results

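MT4A and MT2A encode metallothioneins, and they were followed across 24 Affymetrix rice arrays of crown and growing point tissue taken at panicle initiation. They were found by symbol or synonym in a RefSeq gene table and are 2 of the 17905 genes that a probe set of the platform represents alone. Each array holds biotin-labelled RNA of 1 sample. The arrays form 4 sets with 3 unstressed (control) and 3 salt-stressed arrays each. One set is m103, a japonica rice that the series text calls sensitive to salt, and another is agami, a japonica rice that it calls tolerant. Both other sets are of indica rice and carry the title ir29, the name of a sensitive indica. The series text also names a tolerant indica, ir63731, which no title carries, so these sets are called the first ir29-labelled set (title numbers 7 to 12) and the second (19 to 24) and are given no tolerance class. The titles name biological replicates. The sources used here do not say how many plants made a sample, how much salt was given or for how long, and the p-values measure the spread between these samples only.

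Metallothioneins are small proteins rich in cysteine, whose thiol groups bind copper, zinc and other metals. Plant members are sorted into types by how their cysteines are arranged, and several are known to take up reactive oxygen species. The gene table gives MT2A, on chromosome 1, the further names OsMT2a, OsMT-I-2a and rgMT-2, those of a type 2 metallothionein. It gives MT4A, on chromosome 12, the names OsMT-I-4a, OsMT1b and OsIDS1. In barley, Ids1 is a metallothionein-like gene of iron-deficient roots. The numeral in the symbol MT4A is therefore not shared by all its names, and the table gives the name OsMT4 to another gene, MT21A, for which no probe set was analysed here. In Arabidopsis, type 4 metallothioneins are seed proteins that bind zinc, a role not assigned to MT4A here. In the gene order of assembly ASM3414082v1, 1 gene lies between MT4A and MT4C, a further metallothionein.

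MT4A has 1 probe set of its own, ending in _at, and shares another, ending in _x_at, with LOC4327982. MT2A has 4 probe sets from 2 source sequences. From one come the brightest, ending in _s_at, which stands for the gene below, and a dim one ending in _at. From the other come a pair ending in _x_at and _at, called here the second pair. On these arrays the ending _at marks a probe set meant for 1 transcript, _s_at one that fits several transcripts of a family or gene, and _x_at one with probes that may bind unrelated transcripts. Every array was scaled to a trimmed mean of 500, and a value so scaled is called a scaled signal. A log2 change is a difference in log2(scaled signal + 16), given with its standard error (SE) from limma. It understates the change of dim probe sets. In bulk tissue, fewer cells of a kind and less RNA per cell cannot be told apart.

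Libraries differed in deposited scale, actin ratio and tissue markers. As deposited, 15 arrays had a trimmed mean of 500, while 5 m103 arrays and 4 arrays from the first ir29-labelled set had one between 58.8 and 115.7. Actin signal at the 3' end over that at the 5' end, which moves with RNA integrity and labelling, was 4.46 to 5.59 in m103 control and 5.57 to 5.95 in m103 salt arrays, and 4.11 to 7.37 in control and 6.77 to 10.1 in salt arrays of the second ir29-labelled set, the widest shift. The highest ratio was in salt replicate 2 of that set, where MT4A and MT2A were both lowest among its salt arrays. The lowest ratio of all arrays, 4.11, was in its control replicate 1, where both were lowest among its control arrays. Of 9 measured genes that mark the growing point, OSH1, a homeobox gene of the meristem, had a median scaled signal of 4080, while MADS34, a panicle gene, had a median of 11.5. The 9 summed to 9966 to 13109 in control and 13175 to 15979 in salt arrays of the second ir29-labelled set, without overlap. OSH1 was called higher with salt there, beside 4.41% of all probe sets. In the other sets the sums of control and salt arrays overlapped. The summed signal of 4 leaf markers was 36364 to 39122 in control and 32271 to 33973 in salt arrays of the first ir29-labelled set, and 38062 to 45208 against 24682 to 45321 in m103. RBCS1 was dim among them (median 14). Of the root markers only LSI1 and LSI2 were measured, and their sum was 927 to 1548 in m103 control and 363 to 489 in m103 salt arrays. It moved the other way in the first ir29-labelled set (348 to 438 in control, 519 to 610 in salt) and was lower without overlap in the second (344 to 386, then 242 to 273), and it overlapped in agami (257 to 401, then 270 to 372). The 8 seed markers summed to 291 to 1033. The part of these differences in the results below was not tested.

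Both metallothioneins were chosen by their scaled signals in control and salt arrays, so their values in the salt contrasts are a description and carry no test. In brief, MT4A was far higher with salt in m103 and higher in the first ir29-labelled set, and its salt and control arrays overlapped in agami and in the second ir29-labelled set. MT2A was higher with salt in m103, agami and the first ir29-labelled set, and its groups overlapped in the second ir29-labelled set.

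In m103, MT4A had scaled signals of 213, 204 and 221 in the control arrays and of 3956, 3946 and 1707 in the salt arrays. Every salt array lay above every control array, and salt replicate 3 lay well below the other salt replicates. The means were 213 ± 8.49 and 3203 ± 1296 (SD, n = 3), a ratio of 15.1, and the log2 change was 3.72 ± 0.30. Over all probe sets tested, 4.17% were called higher in this contrast and 14.1% had every salt array above every control array, shares from which nothing is read here because this contrast chose the gene. With only the m103 arrays that were deposited below 500, the log2 change was 3.52.

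In the first ir29-labelled set, MT4A had signals of 503, 674 and 794 in control and of 1622, 2194 and 2928 in salt arrays. The groups did not overlap, and the lowest salt array was 2.04 times the highest control array. The ratio of the means was 3.42 and the log2 change 1.73 ± 0.30, beside 3.38% of all probe sets called higher and 12.3% without overlap. With only the 4 arrays of this set deposited below 500 it was 1.76.

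In agami, MT4A stood at 153, 224 and 324 in control and at 181, 201 and 211 in salt arrays. All salt arrays fell inside the range of the control arrays, and the log2 change was -0.17 ± 0.30. In the second ir29-labelled set the control arrays had 396, 662 and 655 and the salt arrays 752, 388 and 575. The salt arrays spanned more than the control arrays in both directions, and the log2 change was -0.01 ± 0.30. The mean over the 4 sets was 1.32 ± 0.15. The difference in salt change was -3.89 ± 0.43 for agami minus m103, -1.74 ± 0.43 for the second minus the first ir29-labelled set, and -0.91 ± 0.30 for the ir29-labelled sets minus the japonica cultivars.

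MT2A, by its brightest probe set, had scaled signals of 7985, 10120 and 7410 in the m103 control arrays and of 28204, 26626 and 22360 in the m103 salt arrays. The groups did not overlap, as 14.1% of all probe sets had every salt array above every control array there, and salt replicate 3 was again the lowest of the salt arrays. The means were 8505 ± 1428 and 25730 ± 3023 (SD, n = 3), a ratio of 3.03, and the log2 change was 1.60 ± 0.18. In the first ir29-labelled set it had 9439, 9609 and 11569 in control and 19862, 27373 and 28018 in salt arrays, again without overlap, as for 12.3% of all probe sets. The ratio was 2.46 and the log2 change 1.29 ± 0.18.

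In agami, where MT4A did not separate, MT2A had 7148, 11237 and 10630 in control and 17294, 16364 and 14432 in salt arrays. Every salt array was above every control array, the ratio of means was 1.66 and the log2 change was 0.75 ± 0.18, in a contrast where 0.521% of all probe sets were called higher and 10.1% had every salt array above every control array. In the second ir29-labelled set it had 9566, 13873 and 13072 in control and 13176, 9390 and 13544 in salt arrays. These groups overlapped, with a log2 change of -0.02 ± 0.18, where 4.41% of all probe sets were called higher. The mean over the sets was 0.91 ± 0.090. The difference in salt change was -0.85 ± 0.25 for agami minus m103, -1.30 ± 0.25 for the second minus the first ir29-labelled set, and -0.54 ± 0.18 for the ir29-labelled sets minus the japonica cultivars.

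**Figure D1:**
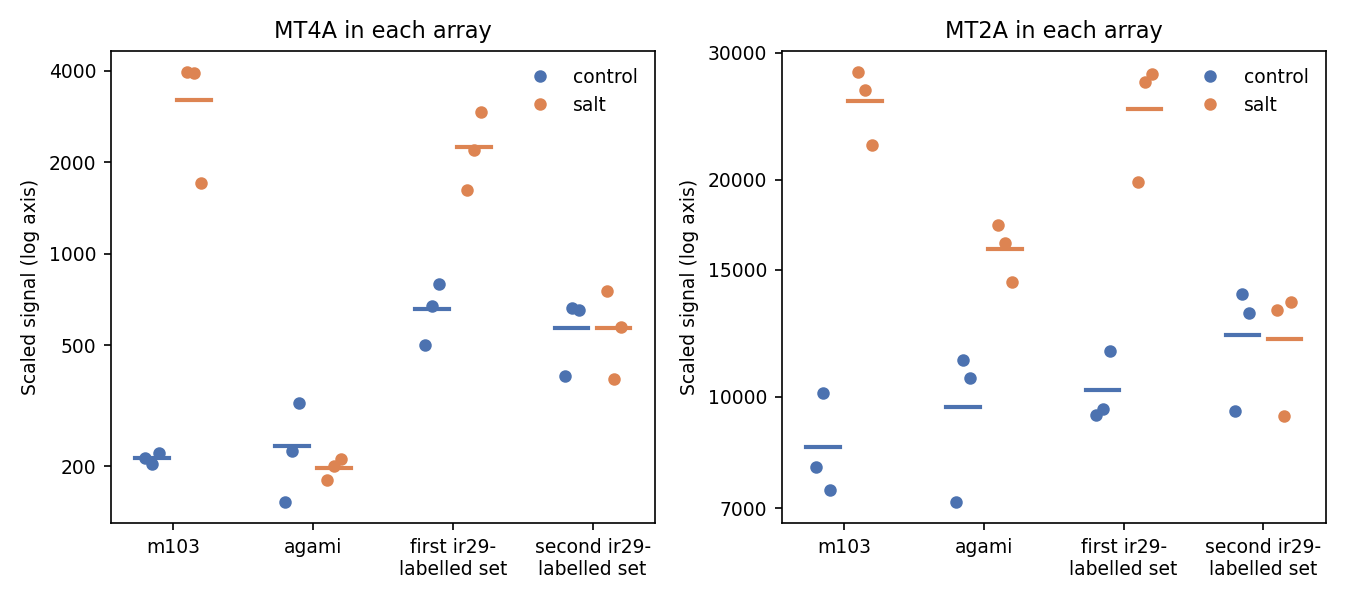
Scaled signal (log axis) of MT4A (left) and MT2A (right, brightest probe set) in every array, with control arrays in blue and salt arrays in orange for each of the 4 sets and a bar at the mean of 3 arrays. MT4A salt arrays stand above all control arrays in m103 (1707 to 3956 against 204 to 221) and in the first ir29-labelled set, MT2A salt arrays do so in these sets and in agami, and both genes overlap in the second ir29-labelled set.

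Ordered by mean log2 signal over the 8 groups, MT4A was highest in m103 salt arrays (11.55 ± 0.69, SD, n = 3) and next in salt arrays of the first ir29-labelled set (11.10 ± 0.42), and these neighbours overlapped. Then came first-set control arrays (9.37 ± 0.33), second-set control arrays (9.16 ± 0.41) and second-set salt arrays (9.15 ± 0.47), which overlapped one another. The lowest levels were in agami control (7.91 ± 0.51), m103 control (7.84 ± 0.05) and agami salt arrays (7.74 ± 0.10), also overlapping. Neither the step down from the salt arrays of the first set nor the step down to the agami controls held an overlap. For MT2A the order ran from m103 salt (14.65 ± 0.17) and first-set salt arrays (14.60 ± 0.28), which overlapped, to agami salt arrays (13.97 ± 0.13), which overlapped neither neighbour. Below them lay the second-set control (13.55 ± 0.29) and salt arrays (13.54 ± 0.29) and the controls of the first set (13.31 ± 0.16), agami (13.21 ± 0.36) and m103 (13.04 ± 0.23), each overlapping the next.

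The control arrays are part of the salt contrasts that chose both genes, so the differences between controls of the sets are also a description with no test. Unstressed MT4A ranged from 396 to 794 in the 6 ir29-labelled control arrays (614 ± 141, SD, n = 6) and from 153 to 324 in the 6 japonica control arrays (223 ± 56.0). All 6 ir29-labelled arrays were above all japonica arrays, as for 5.63% of all probe sets. The log2 difference was 1.40 ± 0.21, in a comparison where 15.9% of all probe sets were called higher. The difference was 0.07 ± 0.30 for agami minus m103 and -0.21 ± 0.30 for the second minus the first ir29-labelled set. The summed signal of the 9 growing point markers separated the same arrays the other way, at 9966 to 13109 in ir29-labelled and 13811 to 16033 in japonica control arrays, with OSH6, OSH1 and MADS15 called lower in the former beside 16.1% of all probe sets, and its part in the MT4A difference was not tested. A difference between subspecies in RNA and one in how well the probes match each sequence cannot be told apart.

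For MT2A the difference between controls varied by probe set. The brightest ranged from 9439 to 13873 in ir29-labelled and from 7148 to 11237 in japonica control arrays, which overlapped, with a difference of 0.30 ± 0.13. It was 0.17 ± 0.18 for agami minus m103 and 0.24 ± 0.18 between both ir29-labelled sets, second minus first. In the second pair, the _x_at probe set differed by 0.79 ± 0.13 for ir29-labelled minus japonica controls and by 1.08 ± 0.19 for agami minus m103, where 5.35% of all probe sets were called higher. The _at probe set of that pair differed by 1.49 ± 0.44 for ir29-labelled minus japonica controls.

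The other probe sets of MT2A were dimmer and moved less evenly with salt. The _x_at probe set of the second pair had 250, 274 and 190 in m103 control and 444, 377 and 570 in m103 salt arrays. These did not overlap, as for 14.1% of all probe sets, and the log2 change was 0.91 ± 0.19. In agami this probe set had 448, 493 and 625 against 785, 680 and 829, again without overlap, as for 10.1% of all probe sets (0.55 ± 0.19). Its groups overlapped in the first (0.39 ± 0.19) and second (0.21 ± 0.19) ir29-labelled sets. In m103, agami and the first set its change was smaller than that of the brightest probe set (1.60, 0.75 and 1.29, each ± 0.18).

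The _at probe set of the second pair changed by 1.98 ± 0.63 in m103, where groups with means of 14.1 and 96.1 did not overlap, as for 14.1% of all probe sets. Its groups overlapped elsewhere, with changes of 0.30 in agami, 0.52 in the first ir29-labelled set and -0.98 in the second (each ± 0.63). The dim _at probe set had group means between 1.77 and 31.1, under or near the level at which probe sets were tested (about 27.9), and did not enter the tests. In agami its salt arrays lay above its control arrays (means of 15.5 and 1.77), both below that level. The probe set shared with LOC4327982 was bright and nearly level, with group means between 15738 and 19685. Its log2 changes were 0.08 ± 0.11 in m103 and -0.09 ± 0.11 in the first ir29-labelled set, where MT4A's own probe set changed by 3.72 and 1.73. The probe sets that the annotation pairs with MT4A therefore gave unlike changes, and the changes given for MT4A rest on 1 of them. Group means of MT4A's own probe set were only 198 to 3203. Whether the far brighter shared probe set could register such a rise was not tested.

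**Figure D2:**
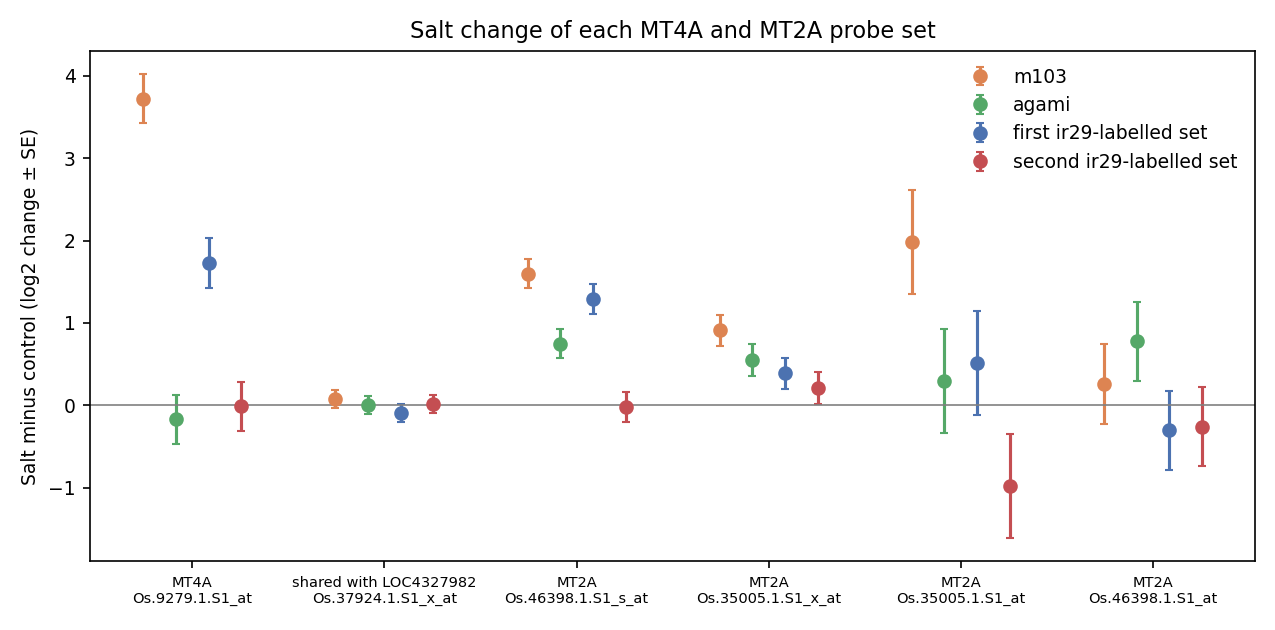
Log2 change with salt (salt minus control, ± SE, 3 arrays per group) for each probe set of MT4A and MT2A and the one shared with LOC4327982, with 1 point per set of arrays. MT4A's own probe set (leftmost) reaches 3.72 in m103 while the shared probe set stays between -0.09 and 0.08, and the brightest MT2A probe set is above 0.7 in every set but the second ir29-labelled one.

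MT4A and MT2A were set against each other array by array. After the mean of its own set was subtracted from each array, Pearson's r between them was 0.88 over 24 arrays, a description that takes in the salt differences, over arrays that share one RNA sample and one scaling for both genes. Over the 6 arrays of a set it was 0.98 for m103, 0.99 and 0.93 for the ir29-labelled sets (first, then second) and 0.09 for agami. The values of m103 and the first set hold the salt shift for which both genes were chosen. In salt arrays of m103 both were highest in replicate 1 and lowest in replicate 3, and in salt arrays of the first ir29-labelled set both were lowest in replicate 1 and highest in replicate 3. In the second ir29-labelled set the array with the lowest signal was control replicate 1 among the controls and salt replicate 2 among the salt arrays for both genes. In agami the salt arrays ran in opposite orders, with MT2A highest and MT4A lowest in replicate 1.

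**Figure D3:**
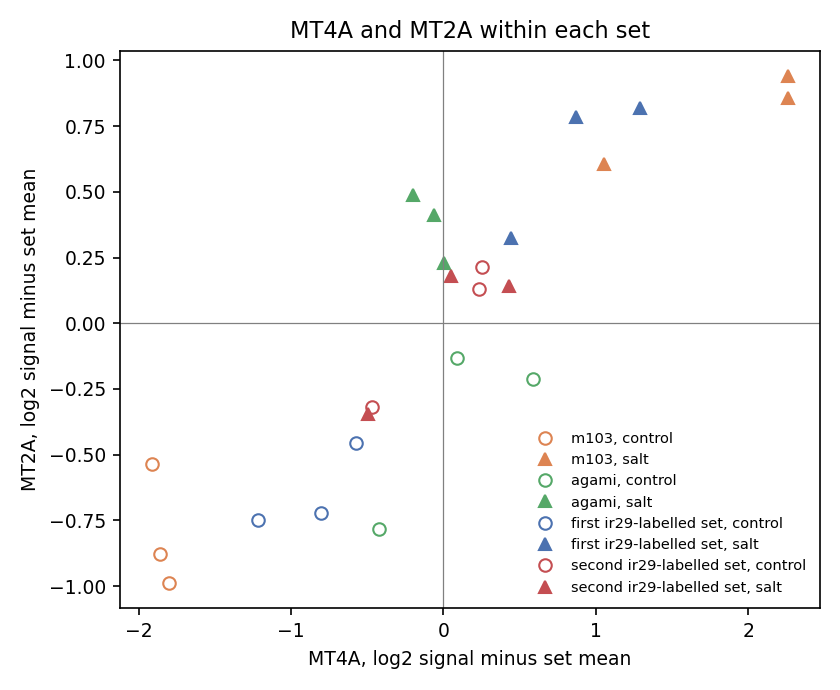
Log2 signal of MT4A (x axis) against MT2A (y axis) in 24 arrays, each minus the mean of its set, with open circles for control and filled triangles for salt arrays. The arrays of m103 and the first ir29-labelled set run from lower left to upper right, and the agami salt arrays lie higher on the MT2A axis with MT4A near 0.

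Named genes were ranked by the same measure (Pearson's r of set-centred log2 signals over 24 arrays, among 2840 named probe sets tested). This r takes in the salt shift for which both metallothioneins were chosen. The salt changes of the genes so ranked therefore follow in part from the ranking and are a description. Those most like MT4A were GRXC1, a glutaredoxin (r = 0.95), GLO5, named as a glycolate oxidase (0.92), NSHB1, a non-symbiotic haemoglobin, PHY18 and the glutaredoxin GRXC10 (0.91 each). GRXC1 changed with salt by 5.22 in m103, by -0.50 in agami and by 2.38 and 0.29 in the first and the second ir29-labelled set (each ± 0.44). Those least like it were IAA1, an auxin-response repressor (-0.89), AT1 (-0.88) and UGD4, a UDP-glucose dehydrogenase (-0.88).

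Those most like MT2A were UAH, an enzyme of ureide breakdown (0.95), PHY18 (0.94), CIPK14, a calcium-signalling kinase (0.94), GA20OX3, a gibberellin synthesis enzyme (0.90), and the nucleoredoxin OsNrx1-1 (0.89). CIPK14 changed by 3.69 in m103, by 1.09 in agami and by 2.20 and 0.31 in the first and the second ir29-labelled set (each ± 0.22). The least like it were CESA6, a cellulose synthase (-0.91), ALN, the allantoinase of purine breakdown (-0.89), and MGD3, of galactolipid synthesis (-0.88). PHY18 stood in both lists of like genes, with salt changes of 0.96 ± 0.13, 0.19 ± 0.13, 0.85 ± 0.13 and 0.05 ± 0.13 in the same order of sets. Without set centring, 5 of these 16 values moved. The r of UAH with MT2A was then 0.60 (place 114 of 2840) and that of CESA6 was -0.65, while that of CIPK14 was 0.89. The r with MT4A was 0.69 for PHY18 (place 59), -0.54 for IAA1 and -0.41 for AT1 (place 2591), and 0.80 for GRXC1.

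Of 8 metallothionein genes found in the gene table under the listed symbols, 7 had a probe set of their own, and MT4B had only one shared with other genes. The 5 metallothioneins other than MT4A and MT2A were tested with salt, and MT1B in the first ir29-labelled set was the only call, beside 3.38% of all probe sets called higher there. By their brightest probe sets, in m103, agami, the second set and the mean of the sets, 0 of the 5 passed limma's adjusted p of 0.05, beside 8.85%, 0.934%, 8.83% and 17.7% of all probe sets called in either direction. The unadjusted p was under 0.05 for 0 of them in m103, agami and the second set, and for 2, MT1B and MT2C, in the mean of the sets.

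MT1B, on chromosome 3, had 38.3, 66.3 and 74.8 in control and 838, 275 and 621 in salt arrays of the first ir29-labelled set. The groups did not overlap, as for 12.3% of all probe sets, and the log2 change was 2.87 ± 0.76 (limma adjusted p = 0.025, higher in 3 of 3 salt arrays). The call ended when any 1 array of that set other than salt replicate 2 was left out (limma adjusted p = 0.055 to adjusted p = 0.1). In m103 salt arrays it had 1424, 152 and 10.7, beside 117, 135 and 93.2 in control arrays, so that salt replicate 1 was far above and salt replicate 3 far below the controls. Its m103 change of 0.52 ± 0.76 (limma adjusted p = 0.79) became 1.92 without salt replicate 3 (limma adjusted p = 0.039). In the second ir29-labelled set it had 70.5, 60.2 and 38.1 in control arrays and between 100 and 117 in salt arrays. Every salt array was above every control array there, as for 11.4% of all probe sets, and the change of 0.79 ± 0.76 did not pass (limma adjusted p = 0.62).

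MT1A, on chromosome 11, a type 1 metallothionein known in rice for zinc balance and drought tolerance, had 1481, 952 and 1092 in control and 2389, 1697 and 2209 in salt arrays of the first ir29-labelled set. In the second ir29-labelled set it had 1296, 965 and 690 in control and 602, 335 and 649 in salt arrays. The salt arrays lay above all controls in the first set and below them in the second, as for 12.3% and 11.7% of all probe sets, but neither the change of 0.84 ± 0.43 (limma adjusted p = 0.32) nor that of -0.89 ± 0.43 (limma adjusted p = 0.23) passed. In m103 the change was 0.49 ± 0.43 (limma adjusted p = 0.60), and 1.21 without salt replicate 3 (limma adjusted p = 0.037). MT4C, the neighbour of MT4A, had group means between 35.1 and 117 and changes between -0.50 ± 0.57 and 0.88 ± 0.57, none past the threshold.

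The type 2 genes MT2B, on chromosome 1, and MT2C, on chromosome 5, are each read by a bright probe set, and none of their changes with salt passed on it. MT2C is also listed as OsMT2b, a name under which a rice metallothionein is known to scavenge reactive oxygen species. By their brightest probe sets, MT2B had group means between 37332 and 50927 and salt changes between 0.08 and 0.17 (each ± 0.13), and MT2C had means between 40902 and 59171 and changes between 0.07 and 0.23 (each ± 0.15). In m103 a dimmer probe set of each, both ending in _x_at, was higher with salt. That of MT2B rose by 0.90 ± 0.27 (limma adjusted p = 0.038, from 6596 ± 1220 to 12379 ± 2670, SD, n = 3) and that of MT2C by 0.55 ± 0.15 (limma adjusted p = 0.021, from 17231 ± 2455 to 25023 ± 1146). The latter also passed in the mean of the sets (0.30 ± 0.074, limma adjusted p = 0.0058), which the count by brightest probe sets does not hold. Whether the brightest probe sets can register a rise at such signals was not tested. Metallothioneins of a type resemble one another, so signal from one gene on another gene's probes was not tested. Among control arrays, MT2C was lower in the second than in the first ir29-labelled set by -0.46 ± 0.15 (limma adjusted p = 0.046, where 6.79% of all probe sets were called lower), a difference of 0.03 after quantile normalization. That dimmer MT2B probe set was higher in ir29-labelled than in japonica controls by 1.40 ± 0.19 (limma adjusted p = 2.8e-06, where 15.9% of all probe sets were called higher). The brightest MT2B probe set differed there by -0.05 ± 0.095 (limma adjusted p = 0.74).

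**Figure D4:**
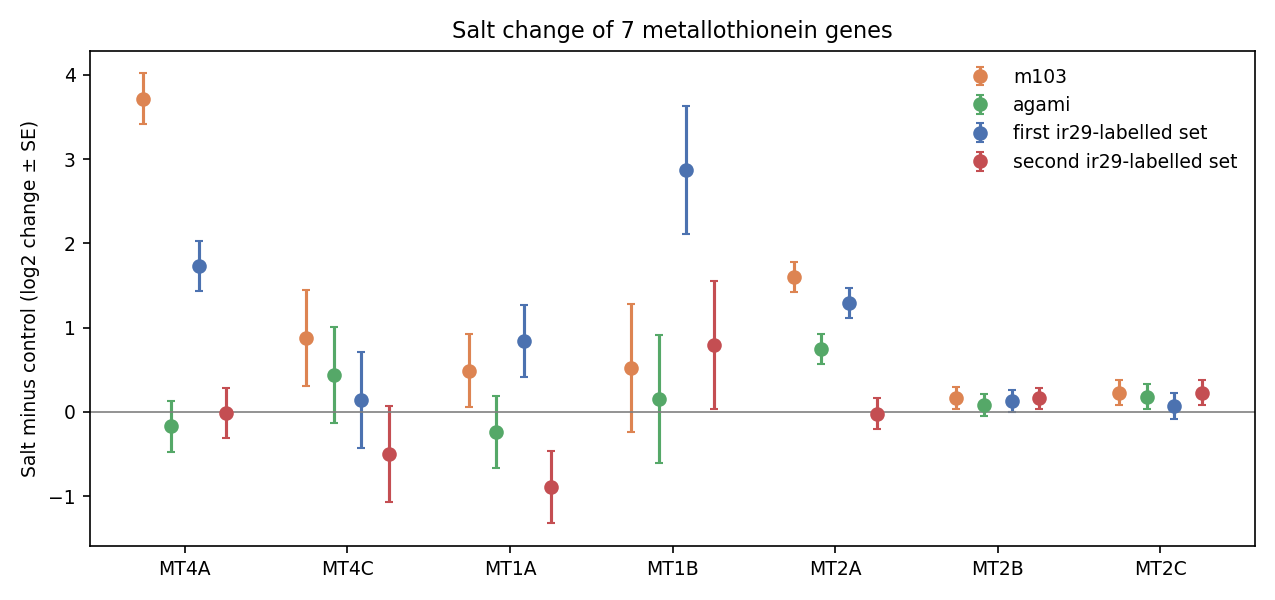
Log2 change with salt (± SE, 3 arrays per group) of 7 metallothionein genes in the 4 sets, each by its brightest probe set. MT4A in m103 (3.72) and MT1B in the first ir29-labelled set (2.87) stand highest, and MT2B and MT2C lie between 0.07 and 0.23 in every set.

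Other genes that handle metals were read from a list of transporters and chelators, of which 42 were tested. With salt, 4 rose and 5 fell in m103, 0 changed in agami by limma's adjusted p (7 did at an unadjusted p under 0.05), 6 rose in the first ir29-labelled set, and 1 rose and 3 fell in the second. Over all probe sets, 4.17% were called higher and 4.67% lower in m103, 3.38% and 2.42% in the first set and 4.41% and 4.42% in the second, and 0.934% were called in either direction in agami. The list had medians of -0.03, -0.11, 0.18 and -0.09 against medians over all probe sets of 0.016, -0.004, 0.008 and -0.026. NAS3, a nicotianamine synthase, rose in m103 (0.85 ± 0.17, limma adjusted p = 0.0023) and in the first ir29-labelled set (0.96 ± 0.17, limma adjusted p = 0.0011). Its changes in agami (0.46 ± 0.17, limma adjusted p = 0.24) and the second set (0.32 ± 0.17, limma adjusted p = 0.28) did not pass. The NAS3 mean over the sets was 0.65 ± 0.086 (limma adjusted p = 1.1e-05), and no difference in its salt change between sets was called. NRAMP3, a manganese transporter, rose in m103 and the first ir29-labelled set by 0.64 ± 0.19 and 0.81 ± 0.19 (limma adjusted p = 0.034 and adjusted p = 0.010). Its changes of -0.03 ± 0.19 in agami and 0.29 ± 0.19 in the second set did not pass, and its mean was 0.43 ± 0.095 (limma adjusted p = 0.0024). YSL6, a transporter of metal chelates, fell by 0.48 in m103 and by 0.45 in the second ir29-labelled set. Its changes of -0.36 ± 0.10 in agami and -0.16 ± 0.10 in the first set did not pass, and its mean was -0.36 ± 0.052 (limma adjusted p = 3e-05). No difference in salt change between sets was called for NRAMP3 or YSL6. VIT2, a vacuolar iron transporter, fell by 1.48 in m103 and rose by 2.98 in the first ir29-labelled set. HMA4, a copper pump of the vacuole, rose by 0.56 in the first ir29-labelled set and fell by 0.40 in the second. Among the metal genes named so far, the salt change itself differed between sets for VIT2 and HMA4. For VIT2 the difference was 2.30 ± 0.45 for ir29-labelled minus japonica (limma adjusted p = 0.029, where 0.131% of all probe sets were called higher). For HMA4 it was -0.95 ± 0.16 for the second minus the first set (limma adjusted p = 0.0026, where 1.74% were called lower). Of the other listed metal genes, NAS2 and NRAMP1 were called with a lower salt change in agami than in m103. TOM1 was called with a higher one in the second than in the first ir29-labelled set.

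Of 18 genes for removal of reactive oxygen and for thiols, 3 rose and 1 fell in m103, 0 were called in agami (5 were at an unadjusted p under 0.05), and 2 rose in each ir29-labelled set. These counts stand beside 4.17% higher and 4.67% lower of all probe sets in m103, 0.934% in either direction in agami, and 3.38% and 4.41% higher in the ir29-labelled sets. The list's medians were 0.17, 0.13, 0.10 and 0.06, against 0.016, -0.004, 0.008 and -0.026 over all probe sets. APX7, an ascorbate peroxidase, rose in m103 (0.73 ± 0.11, limma adjusted p = 9.1e-05) and in the first ir29-labelled set (0.42 ± 0.11, limma adjusted p = 0.017). Its changes in agami (0.28 ± 0.11, limma adjusted p = 0.24) and the second set (0.18 ± 0.11, limma adjusted p = 0.35) did not pass. The APX7 mean over the sets was 0.40 ± 0.053 (limma adjusted p = 1e-05). MDAR5, which recycles ascorbate, rose in m103 (0.45 ± 0.096) and in the second ir29-labelled set (0.55 ± 0.096), and APX6 in the same sets by 0.34 ± 0.083 and 0.30 ± 0.083. In agami (0.21 ± 0.096) and the first set (0.24 ± 0.096) MDAR5 passed only at limma's unadjusted p under 0.05. Its mean over the sets was 0.36 ± 0.048 (limma adjusted p = 1.1e-05). No difference in salt change between sets was called for APX7, MDAR5 or APX6. Of this list only CATA had one, higher for ir29-labelled minus japonica, where 0.131% of all probe sets were called higher.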

How the data were processed

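The deposited table gives each array a linear intensity for 57381 probe sets. The submitters' processing notes name GCOS 1.2, and the sources used here give neither its signal algorithm nor a genome build. Each array was multiplied so that its mean without the lowest and highest 2% was 500, and log2(scaled signal + 16) was taken. The 123 control probe sets were left out, and 34355 of 57258 with a mean above the 40th percentile were tested. Limma 3.58.1 in R 4.3.3 fitted 1 mean for each of 8 groups over 24 arrays with an intensity trend, and two-sided p-values were adjusted by Benjamini-Hochberg over all probe sets tested. The code was tested on simulated data. With 3 arrays per group, their number limits the precision. By the platform's annotation 22436 probe sets have 1 gene, 95 have several and 34850 have no gene, and all 22436 matched the RefSeq table (ASM3414082v1), used for names and gene order only. List genes were represented by their brightest probe set. Listed genes were named if they belong to the metallothioneins, or were called in at least 2 of the 4 sets (at most 6 per list). Like genes were the 5 highest and 3 lowest by r. NAS2, NRAMP1, TOM1 and CATA were named only for a called difference in salt change. No p is given for MT4A or MT2A in any contrast, since control and salt arrays both entered their choice; a test of their controls had been planned. The members and lists were chosen with earlier results of these data known. Alternatives were other scalings, pseudocounts, filters and variance models, fewer arrays and the replicate number as a block. No sequences are printed.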

Additional observations from a re-analysis of the deposited data

Results flagged for a closer look

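The salt change of VIT2, the vacuolar iron transporter, was larger in the ir29-labelled sets than in the japonica cultivars by 2.30 ± 0.45 on the log2 scale (limma adjusted p = 0.029), with changes of -1.48 (m103), 0.61 (agami), 2.98 (first ir29-labelled set) and 0.76 (second). The salt change of HMA4, the copper pump, was lower in the second than in the first ir29-labelled set by -0.95 ± 0.16 (limma adjusted p = 0.0026). Beside the metallothioneins, only listed genes called in at least 2 of the 4 sets were searched for such differences. NAS2, NRAMP1, TOM1 and CATA also had a called difference in salt change but fell outside that rule. MT1A had every salt array above every control array in the first ir29-labelled set (ratio of means 1.79) and every salt array below every control array in the second (0.537), and the difference in change of -1.72 ± 0.61 did not pass (limma adjusted p = 0.12).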

How the results depend on the processing

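The salt changes of MT4A and MT2A moved by less than the spread between replicates in 84 of 84 other settings of scaling, pseudocount, filter, variance model and arrays used, and in 96 of 96 fits without 1 array. The 96 were all fixed in advance and say nothing about stability. In groups this small, leaving out 1 array cannot move a salt change by as much as that spread. Some of the 84 were also fixed in advance. A change of filter, variance model or replicate block, or use of 1 set alone, cannot move a difference of group means. Changes near 0 took either sign: MT4A in the second ir29-labelled set was -0.01 and 0.07 with quantile normalization. Without 1 array, MT4A changed by 3.52 to 4.12 in m103, -0.42 to 0.08 in agami, 1.52 to 1.95 in the first and -0.25 to 0.24 in the second ir29-labelled set (mean 1.25 to 1.42), and MT2A by 1.51 to 1.73, 0.55 to 0.87, 1.2 to 1.44 and -0.18 to 0.15 (mean 0.85 to 0.95). The choice of probe set moved them, and the cause was not tested. The brighter probe set that MT4A shares with LOC4327982 changed by 0.08 in m103, -0.09 in the first set and 0 in the mean. MT2A changed by 1.98, 0.91 and 0.26 in m103 with the second pair's _at, its _x_at and the dim _at probe set, by 0.52, 0.39 and -0.30 in the first set, and by 0.46, 0.51 and 0.12 in the mean, and with the second pair's _at by 0.30 in agami and -0.98 in the second set.

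The difference of MT4A between ir29-labelled and japonica controls was 1.27 to 1.52 without any 1 array. That of MT2A was 0.20 to 0.39, with 0.37 without control replicate 2 of m103 or of agami and 0.39 without control replicate 1 of the second set, and was 0.43 with median centring, which moved the median of all probe sets there to 0.121.

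Among the 5 other metallothioneins, the count called in the first set went from 1 to 0 without the intensity trend and to 2 with only that set's arrays, and ran from 0 to 1 without 1 array. In m103 it ran from 0 to 2, reaching 2 without salt replicate 3. In the mean it was 1 with quantile normalization, pseudocount 64, the replicate block or only arrays deposited below 500, and 0 to 1 without 1 array, reaching 1 without salt replicate 1 or 3 of m103, salt replicate 2 of the first set or control replicate 3 of agami. Between ir29-labelled controls it was 0 with quantile normalization, median centring, pseudocount 1, no filter, no trend, only control arrays or only arrays deposited below 500, and 0 to 2 without 1 array (0 without control replicate 2 or 3 of the first set or 1 or 3 of the second, 2 without control replicate 2 of the second), and MT2C reversed to 0.03 with quantile normalization. Between ir29-labelled and japonica controls it was 1 with only control arrays.

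Over all probe sets, calls in agami went from 321 to 188 with median centring, 200 with no filter, 119 without the trend and 541 with the replicate block, those in the first set from 1993 to 1025 with only arrays deposited below 500, and those in the second from 3034 to 205 with only its arrays. Without 1 array they were 1749 to 2567 in m103 (3039 with all), 77 to 370 in agami, 1332 to 1537 in the first and 928 to 3750 in the second set. Counts fell by over 1.5 times without control replicate 1 (1757) or 3 (2021) or salt replicate 2 (1749) of m103, control replicate 2 (91) or 3 (77) or any salt replicate of agami (80 to 159), and control replicate 1 (1409) or salt replicate 2 (928) of the second set. Replicate numbers were not shown to pair the samples: 1 of 12 same-numbered pairs correlated above 0.1 (r from -0.05 to 0.20), and 6 matched their own number best. The replicate block left the MT4A change in m103 at 3.72. It cannot move a salt change with 3 arrays in each group, so this says nothing about pairing. Signals near or below 27.9 limit MT4C and the dimmer MT2A probe sets.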
